A study of Mus musculus with 28 samples.

Results

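RNA that was recovered with an antibody to ZBP1 from the hippocampus of 5xFAD mice was compared, gene by gene, with the RNA of its input. The comparison covers every gene entry of the RNA immunoprecipitation (RIP) count table with at least 100 counts in the 5xFAD input and the 5xFAD immunoprecipitate (IP) together. This rule kept 2464 of 23995 genes. The other 1232 of the 25227 entries are repeat families, which enter here only as part of each library's total. Per the labels the mice were 9 months old, and each genotype, WT and 5xFAD, gave 1 input library (no antibody) and 1 ZBP1 IP library, 4 RIP libraries in all. The 5xFAD label carries the transgenes on a WT background. In that line the Thy1 promoter drives mutant human transgenes, APP among them, in neurons. Whether animals were pooled for a RIP library is not given in the sources used here. An IP with a control antibody, or from mice without Zbp1, was not analysed here, so the ratio of IP to input is not a measure of specific binding. Hippocampal RNA of 3 WT and 3 5xFAD libraries of the same age, in each of 2 cohorts bred with Ripk1 D138N or with Zbp1 knockout mice, served as a separate readout of the same genes.

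ZBP1 is a sensor of nucleic acids. Its Z-alpha domains bind double-stranded RNA or DNA in the left-handed Z form, and its RHIM motifs recruit RIPK3 and RIPK1, which can start necroptosis or inflammatory signalling. ADAR1, the enzyme that edits adenosine in double-stranded RNA, carries a Z-alpha domain too and restrains ZBP1. In RIP sequencing an RNA that travels with the precipitated protein takes a larger share of the IP library than of the input library.

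One of the genes with the largest IP share gain is annotated as a microRNA, and its sequence is given here because it heads the ranking. The mature product of Mir6236 has 19 bases in RefSeq (GRCm38.p6), with its seed, bases 2 to 8, in capitals, and 78.9% of them are G or C.
mmu-miR-6236: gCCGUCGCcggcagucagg
The count table does not say whether the reads counted for Mir6236 come from the mature product or from other RNA over the same locus. No other microRNA gene passed the count minimum.

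Gene entries were a small part of every RIP library. The 5xFAD input held 9.44 M counts and the 5xFAD IP 6.81 M, against 8.91 M and 5.74 M in WT, and gene entries took 8.6%, 7.62%, 8.21% and 8.97% of them in that order. The rest fell on repeat families. Because of this a typical gene had few reads: the median of the 2464 genes was 127 counts over both 5xFAD libraries, 2207 of them had fewer than 200, and 16 had 500 or more. Ratios are given as the fold of CPM, IP over input, where CPM are counts scaled to the total of all entries of a library, with a 95% Clopper-Pearson interval. The interval covers counting error only. At the median gene it reached a factor of 1.46 to either side. With 1 library a side no test between IP and input was possible, and the values describe these libraries.

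Most genes had the same, slightly lower share in the IP. The log2 ratio had a median of -0.36, a fold of 0.781, with quartiles at -0.57 and -0.14, and the intervals of 2201 genes (89.3%) held the median fold. Only 11 genes (0.446%) were 2-fold or more higher in the IP and 75 (3.04%) 2-fold or more lower. The higher genes were mostly noncoding RNAs of the ribosome, of RNA processing and of the nucleus. The 75 lower genes were all protein-coding, but so were 2434 of all 2464 genes, so this is near the share of all genes. The count minimum bears on the high end: 6 of the 11, Mir6236, Rn7sk, Rpph1, Rmrp, Alb and Apoe, passed it only through the IP library in which they are high, and with an IP count at the median fold they would total under 100 counts. How many such genes are among the 2464 is therefore set in part by the rule. The depth of the 2 ends differs too: 10 of the 11 higher genes had an interval wholly above 2-fold, but 2 of the 75 lower genes, Cacna2d2 among them, had one wholly below 0.5. The zero point also depends on the scaling. Taken relative to the median gene, 15 genes were 2-fold or more higher and 10 lower, and with TMM factors, which set the median gene near 0, the split was 16 to 7. Near the count minimum the ratios were alike on both sides: 68 genes at exactly 100 counts had log2 ratios from -1.25 to 0.36 with a median of -0.38, and 61 genes at 99 counts had -1.77 to 0.5 with a median of -0.39.

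**Figure D1:**
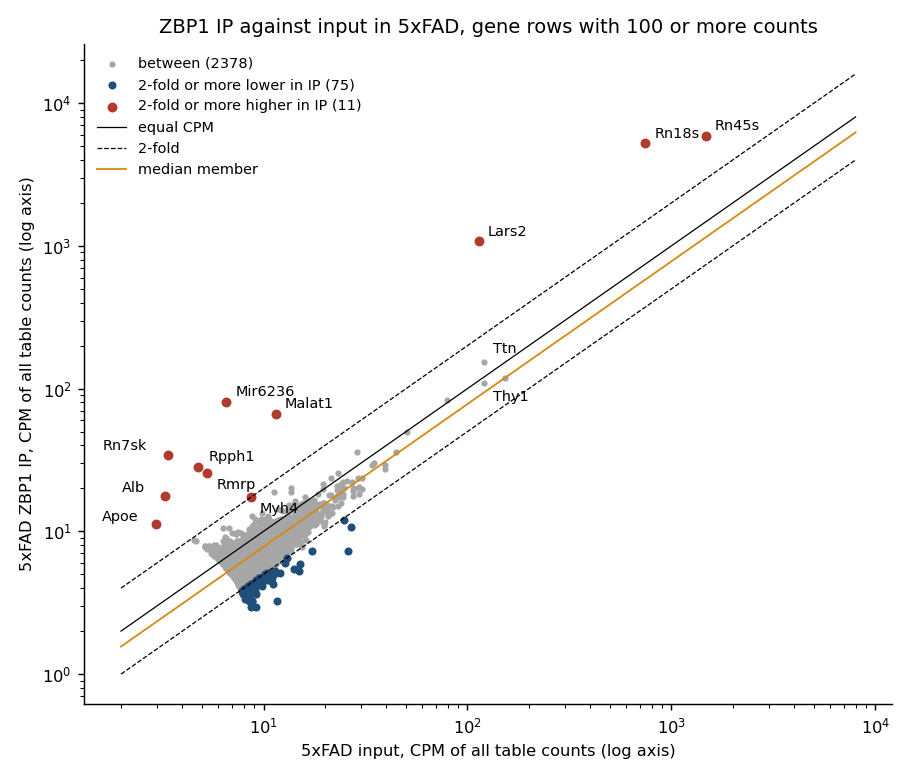
Share of each gene in the 5xFAD ZBP1 IP (vertical axis) against the 5xFAD input (horizontal axis), both as CPM of all table counts on log axes, 1 point a gene and 1 library an axis. The 11 red genes lie above the upper dashed 2-fold line, and the 75 blue genes form the lower edge of the main cloud, whose median (orange) lies at a fold of 0.781.

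Ribosomal RNA gave the largest counts among the higher genes. Rn18s, the 18S RNA of the small ribosomal subunit, had 7036 counts in the 5xFAD input and 35703 in the IP, and 4010 and 42643 in WT. The fold was 7.04 (6.86 to 7.22) in 5xFAD and 16.5 (16 to 17) in WT. Rn45s, the precursor from which the large rRNAs are cut, went from 13872 to 40195 counts in 5xFAD, a fold of 4.02 (3.94 to 4.1), and from 10322 to 49002 in WT, a fold of 7.37 (7.21 to 7.53). Both IP libraries thus lie above both inputs for these genes. The precursor contains the 18S sequence, so how reads were split between these entries is uncertain. Lars2, which encodes the mitochondrial leucyl-tRNA synthetase, had 1076 and 7348 counts in 5xFAD and 625 and 9582 in WT. Its fold was 9.47 (8.88 to 10.1) in 5xFAD and 23.8 (21.9 to 25.8) in WT. Mir6236 had the highest fold, with 62 counts in the 5xFAD input and 551 in the IP (12.3-fold, 9.47 to 16.3) and 29 and 645 in WT (34.5-fold, 23.8 to 52.0). Rn18s, Rn45s and Lars2 together held 38.8% of the IP counts on the 2464 genes and 8.77% of the input counts, but 1.22% and 0.233% of the whole 5xFAD libraries. Taking Rn18s, Rn45s, Lars2, Mir6236, Rn7sk, Rmrp, Rpph1 and Malat1 out of the library totals, a setting chosen after seeing the data, left 11 genes higher and 63 lower.

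The structured RNAs of the nucleus and nucleolus formed a second group. Rn7sk, the 7SK RNA that holds the elongation factor P-TEFb inactive, had 32 input and 233 IP counts in 5xFAD and 17 and 263 in WT. Its fold was 10.1 (6.96 to 15.1) in 5xFAD and 24 (14.7 to 41.8) in WT. Rpph1, the RNA of RNase P, which trims transfer RNA precursors, had 45 and 193 counts in 5xFAD (5.95-fold, 4.28 to 8.42) and 24 and 247 in WT (16-fold, 10.5 to 25.4). Rmrp, the RNA of RNase MRP, which cuts the rRNA precursor, had 50 and 174 counts in 5xFAD (4.83-fold, 3.51 to 6.75) and 16 and 228 in WT (22.1-fold, 13.3 to 39.3). In all 3 the IP count exceeded the input count in both genotypes. The list of structured small and scaffold RNAs has 16 table entries, of which 5 passed the count minimum: Rn7sk, Rpph1, Rmrp, Rn45s and Lars2, a messenger RNA gene that the list also held. Since Rn7sk, Rpph1 and Rmrp passed only through their IP counts, the direction of the 5 is largely fixed by the filter. The 11 entries below the minimum had ratios on both sides of 1. Their counts were not summed apart from the 5, and the entries named here are examples that do not show which way the 11 lean. Also under the minimum was Rny1, a Y RNA, with 3 and 81 counts in 5xFAD (37.4-fold, 12.4 to 185). Vaultrc5, a vault RNA, had 5 and 19 counts in 5xFAD (5.27-fold, 1.9 to 18.1), while Gas5, a host of small nucleolar RNAs, had 19 and 11 (0.803-fold, 0.345 to 1.78), Snhg1, another host, had 13 and 6 (0.64-fold, 0.2 to 1.81), and Terc, the RNA of telomerase, had 4 and 0.

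Long noncoding RNAs of the nucleus did not share one ratio. Malat1, an abundant RNA of nuclear speckles, had 109 input and 454 IP counts in 5xFAD (5.78-fold, 4.68 to 7.19) and 60 and 399 in WT (10.3-fold, 7.85 to 13.8). Neat1, the scaffold of paraspeckles, had 135 and 112 counts in 5xFAD and 121 and 175 in WT, so its ratio was 1.15 (0.888 to 1.49) in 5xFAD and 2.24 (1.77 to 2.85) in WT. Meg3, a maternally expressed imprinted RNA, had 107 and 128 counts in 5xFAD (1.66-fold, 1.27 to 2.17) and 123 and 87 in WT (1.1-fold, 0.824 to 1.46). Kcnq1ot1, Snhg14 and Miat lay at 0.979, 0.813 and 0.755. Xist lay at 1.11. The list of nuclear long noncoding RNAs has 8 entries above the minimum, Ptprd, a protein-coding receptor phosphatase, among them. Of these 1 was 2-fold higher, none was 2-fold lower, 7 lay above the median gene, and their median log2 ratio was 0.06.

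Few messenger RNAs were 2-fold higher. Apoe, the lipid carrier made by astrocytes and by reactive microglia, had 28 input and 76 IP counts in 5xFAD (3.76-fold, 2.41 to 6.03) and 23 and 60 in WT (4.05-fold, 2.47 to 6.86), so the ratio was alike in both genotypes. Alb, serum albumin, had 31 and 121 counts in 5xFAD (5.41-fold, 3.62 to 8.31) and 29 and 122 in WT (6.53-fold, 4.33 to 10.2). Albumin messenger RNA belongs to the liver, and in the 24 hippocampal libraries Alb did not exceed 0.448 CPM. Apob, the apolipoprotein of very low density lipoprotein, had 129 and 128 counts in 5xFAD (1.38-fold, 1.07 to 1.77) and 106 and 146 in WT (2.14-fold, 1.65 to 2.77), with a hippocampal mean of 0.133 CPM. Trf, the iron carrier transferrin, which the liver and oligodendrocytes make, had 44 and 58 counts in 5xFAD (1.83-fold, 1.21 to 2.77) and 29 and 48 in WT (2.57-fold, 1.59 to 4.22). Over 15 liver-secreted proteins, a list added after the values were seen, the summed counts went from 432 to 585 in 5xFAD, a fold of 1.88 (1.66 to 2.13), and from 357 to 577 in WT, a fold of 2.51 (2.19 to 2.87). What part RNA of other tissue has in these values was not tested.

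Skeletal muscle genes appeared too, without a common ratio. Myh4, a fast muscle myosin, had 82 input and 119 IP counts in 5xFAD (2.01-fold, 1.51 to 2.7) and 79 and 51 in WT (1.0-fold, 0.69 to 1.44). It is the 1 gene of the 11 that was not 2-fold higher in WT. Atp2a1, the muscle calcium pump, had 60 and 72 counts in 5xFAD (1.66-fold, 1.17 to 2.39) and 50 and 26 in WT (0.807-fold, 0.482 to 1.32). Ttn, the giant sarcomere protein titin, had 1132 and 1048 counts in 5xFAD (1.28-fold, 1.18 to 1.4) and 967 and 661 in WT (1.06-fold, 0.959 to 1.17). Ryr1, the calcium release channel of muscle, in contrast had 278 and 139 counts in 5xFAD (0.694-fold, 0.562 to 0.853) and 245 and 153 in WT (0.969-fold, 0.787 to 1.19). Of 8 muscle genes above the minimum, on a list added after the values were seen, 1 was 2-fold higher and none lower, and the median log2 ratio was 0.02.

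At the low end, genes of myelin went separate ways. Myrf, the transcription factor of myelin genes, had 105 and 29 counts in 5xFAD (0.383-fold, 0.245 to 0.583) and 76 and 47 in WT (0.96-fold, 0.652 to 1.4). Mbp, a protein of compact myelin, had 83 and 87 counts in 5xFAD (1.45-fold, 1.06 to 1.99), Mobp 55 and 53 (1.34-fold, 0.899 to 1.99), and Trf is among the highest messenger RNAs. Of the 6 myelin and oligodendrocyte genes above the minimum none was 2-fold higher and 2 were 2-fold lower, Myrf among them, and their median log2 ratio was 0.21.

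The low genes came from many families, and 1 of the 75 was 2-fold lower in WT as well. Cacna2d2, an auxiliary calcium channel subunit, had 110 input and 22 IP counts in 5xFAD (0.277-fold, 0.167 to 0.441) and 103 and 50 in WT (0.753-fold, 0.526 to 1.07). Rap1gap, which switches off the small GTPase RAP1, had 87 and 20 counts in 5xFAD (0.319-fold, 0.186 to 0.523) and 76 and 52 in WT (1.06-fold, 0.731 to 1.53). Chd3, a chromatin remodeller of the NuRD complex, had 133 and 37 counts in 5xFAD (0.386-fold, 0.26 to 0.559) and 123 and 74 in WT (0.934-fold, 0.69 to 1.26). Dysf, the membrane repair protein dysferlin, had 141 and 36 counts in 5xFAD (0.354-fold, 0.238 to 0.514) and 136 and 58 in WT (0.662-fold, 0.478 to 0.906). Nbeal2, Col16a1 and Col7a1 lay at 0.388, 0.428 and 0.488 in 5xFAD and at 0.713, 0.762 and 1.04 in WT. Trpm5, Odf2, Tmem94, Tmem63b and Fbf1, with 80 to 87 input and 20 to 25 IP counts each, lay between 0.338 and 0.399 in 5xFAD. Over all 75 low genes the median log2 ratio in WT was -0.2, close to the -0.15 of all genes, and 42 of the 75 lay below the WT median. The 75 were picked by their 5xFAD ratio, so values nearer the median in WT are in part fixed by that choice.

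**Figure D2:**
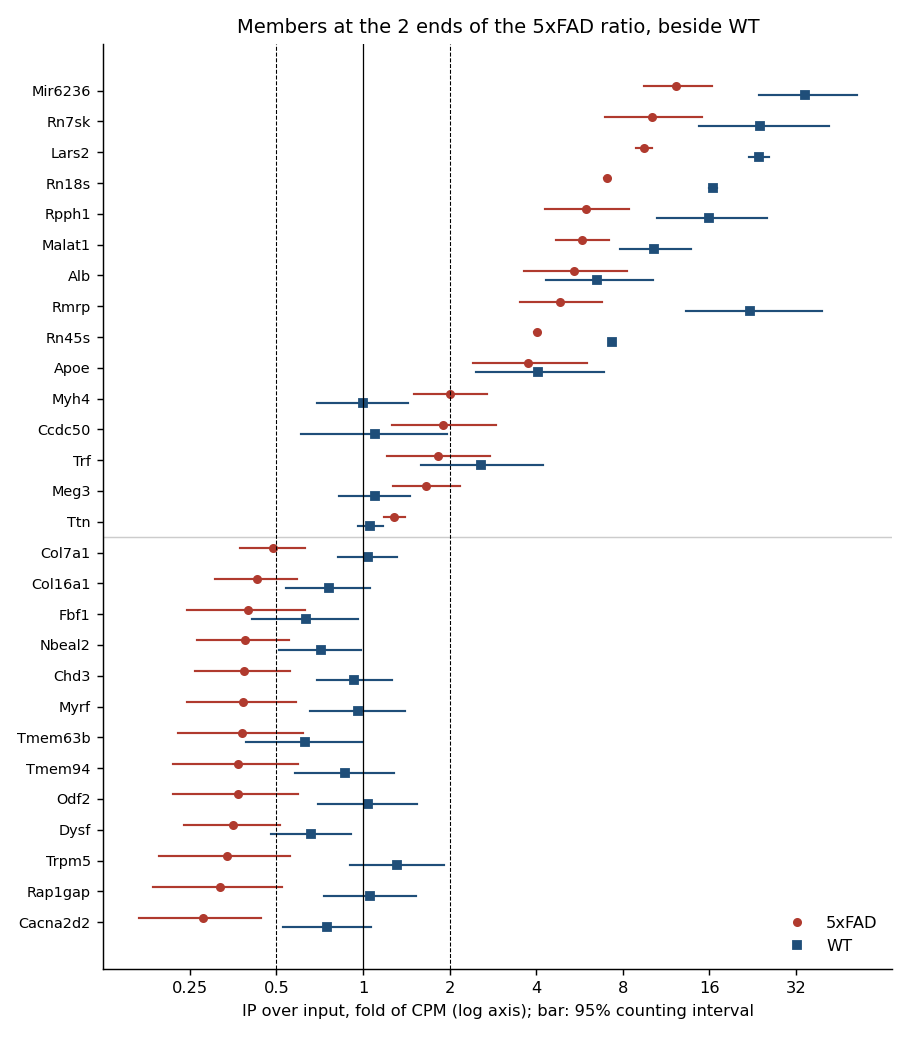
Fold of IP over input (log axis) in 5xFAD (red circles) and WT (blue squares) for the 15 genes with the highest lower bound in 5xFAD and 13 of those with the lowest upper bound; bars are 95% counting intervals of 1 library a side. Rn18s, at 7.04 in 5xFAD and 16.5 in WT, shows the shift of the upper genes, and among the lower genes Cacna2d2 lies at 0.277 in 5xFAD and 0.753 in WT.

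In WT the high end held mostly the same genes, while the count at the low end differed at these library totals. For the same 2464 genes the WT log2 ratio ran from -1.39 to 5.09 with a median of -0.15 (0.902-fold), and 16 genes (0.649%) were 2-fold or more higher and 14 (0.568%) lower. The count of lower genes depends on the zero point. In 5xFAD it was 75 at library totals, 10 relative to the median gene and 7 with TMM factors. Of the 11 genes higher in 5xFAD, 10 were also 2-fold higher in WT. In 7 of them, Mir6236, Lars2, Rn18s, Malat1, Rpph1, Rn45s and Rmrp, the WT fold was the larger and the intervals of the genotypes did not overlap, while those of Rn7sk, Alb and Apoe did. Among the remaining 2453 genes the rank correlation of the 5xFAD and WT ratios was 0.08 (Spearman, across genes, which share their 2 libraries in each genotype). Their scatter exceeded counting error: the chi-square per degree of freedom, which counting error alone would put near 1, was 1.71 in 5xFAD and 1.33 in WT.

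Differences between genotypes were described for the 1817 genes with 100 counts in each pair. The log2 ratio in 5xFAD minus that in WT had a median of -0.23. It was 1 or more in 4 genes (0.22%) and -1 or less in 58 (3.19%). Relative to the median gene of each genotype the counts were 14 and 25, so the preponderance of lower 5xFAD ratios depends on the scaling. Slc1a2, the main glutamate transporter of astrocytes, had 129 input and 136 IP counts in 5xFAD and 129 and 53 in WT, which gives 1.46-fold (1.14 to 1.88) and 0.638-fold (0.454 to 0.884). Mib1, a ubiquitin ligase of Notch signalling, had 64 and 72 counts in 5xFAD (1.56-fold, 1.1 to 2.22) and 84 and 34 in WT (0.628-fold, 0.409 to 0.946). With Myh4 and Ttn these were the 4 of 1817 genes (0.22%) whose interval lay wholly higher in 5xFAD. It lay wholly lower in 58 genes (3.19%). These sets were picked by interval alone and need not be the 4 and 58 genes counted by size. The difference of Ttn was 0.28. They rest on the same library totals, so they too depend on the scaling. Among the genes with a wholly lower interval the lowest differences were those of Rmrp (-2.16), Trpm5 (-1.93), Rap1gap (-1.71), Odf2 and Zfp292 (both -1.48), Mir6236 (-1.47), Phka2 (-1.45) and Dot1l (-1.44). Dot1l, the H3K79 methyltransferase, had 83 and 28 counts in 5xFAD and 58 and 48 in WT. Phka2, a phosphorylase kinase subunit, had 102 and 39 in 5xFAD and 66 and 62 in WT. Both IP counts of these genes lie between 28 and 62, so few reads carry each difference.

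**Figure D3:**
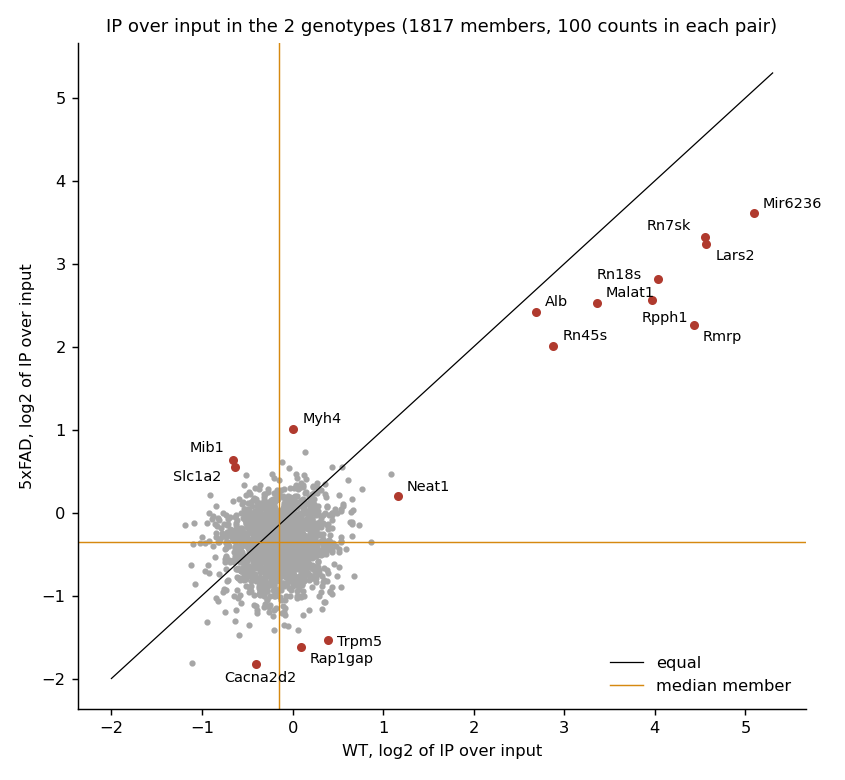
Log2 ratio of IP over input in 5xFAD (vertical axis) against WT (horizontal axis) for 1817 genes with 100 counts in each pair, 1 point a gene; the black line marks equal ratios and the orange lines the median gene, -0.36 in 5xFAD and -0.15 in WT. The labelled genes at the upper right, Mir6236, Rn7sk, Lars2, Rn18s, Rpph1, Malat1, Rmrp, Rn45s and Alb, lie below the black line, and nearly all others form a round cloud with Slc1a2 and Mib1 at its upper left and Trpm5 and Rap1gap at its lower right.

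The genes of the pathway itself were thinly covered. Zbp1 had 25 input and 50 IP counts in 5xFAD (2.77-fold, 1.68 to 4.68) and 26 and 53 in WT (3.16-fold, 1.94 to 5.27). With 75 counts in 5xFAD it is below the minimum and not among the 2464 genes. Its counts were alike in the WT and 5xFAD inputs, whereas in hippocampal RNA it lay at 0 to 0.373 CPM in the 6 WT libraries and at 1.77 to 7.62 in the 6 5xFAD libraries. Ripk1, which relays the ZBP1 signal, had 53 and 43 counts in 5xFAD (1.13-fold, 0.735 to 1.71). Ripk3, the kinase of necroptosis, had 24 and 23 (1.33-fold, 0.717 to 2.46), and Mlkl, its membrane-lysing substrate, 33 and 15 (0.63-fold, 0.318 to 1.19). Adar, the editing enzyme, had 65 and 31 (0.661-fold, 0.417 to 1.03). Of the 16 genes of Z-nucleic acid sensing and necroptosis 3 passed the minimum and none was 2-fold higher or lower. They were Cyld, a deubiquitinase of RIPK1 (1.53-fold, 1.02 to 2.3), Cflar, an inhibitor of caspase-8 (0.85-fold, 0.552 to 1.29), and Adarb2, a brain homologue of the editing enzymes (0.732-fold, 0.481 to 1.1). The summed counts of the 16 went from 655 to 412, a fold of 0.872 (0.769 to 0.988). Of 39 interferon response genes none reached the minimum, and their summed fold was 0.78 (0.709 to 0.857) in 5xFAD and 1.02 (0.928 to 1.12) in WT. The 19 RNA sensors and dsRNA-binding proteins summed to 0.753 (0.677 to 0.838), with 4 above the minimum, among them Dicer1 at 1.03, which cuts microRNA precursors in the cytoplasm, and Drosha, the nuclear RNase that crops microRNA precursors, at 0.627 (0.443 to 0.878).

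Genes of the transgenes were read next. Thy1, whose promoter drives them, had 1131 input and 751 IP counts in 5xFAD and 13 and 17 in WT. In 5xFAD the ratio was 0.921 (0.839 to 1.01), with its interval above the 0.781 of the median gene. Between genotypes its CPM was 82.1-fold higher in the 5xFAD input and 37.3-fold higher in the 5xFAD IP. In hippocampal RNA the 6 5xFAD libraries had 1480 to 2800 CPM and the 6 WT libraries 527 to 645, without overlap, a 3.8-fold difference of the means. App had 77 and 58 counts in 5xFAD (1.04-fold, 0.73 to 1.49) and 62 and 28 in WT (0.701-fold, 0.432 to 1.11).

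Lists of neuronal genes held few genes at either end, as did all 2464 genes, of which 0.446% were 2-fold higher and 3.04% 2-fold lower. Lists this short cannot be told apart from those shares by such counts. Of 28 large synaptic messenger RNAs bound by FMRP none was 2-fold higher or lower, and their median log2 ratio was -0.29. The 15 postsynaptic genes above the minimum had a median of -0.08, with none 2-fold higher or lower, from Camk2a, the calcium/calmodulin kinase of dendritic spines (86 and 83 counts, 1.34-fold, 0.978 to 1.83), to Dlg4, which encodes PSD-95 (95 and 34 counts, 0.496-fold, 0.325 to 0.742). Dlg4 is 1 of 7 genes whose fold lies under 0.5 while the log2 ratio, which adds 0.5 count to each side, does not reach -1. Of 11 presynaptic genes 9 lay above the median gene, with a median of -0.15. Transcripts known for A-to-I editing, which carry double-stranded stretches, gave 11 genes with a median of -0.24, none 2-fold higher and 1 lower, Tmem63b (80 and 22 counts, 0.381-fold, 0.227 to 0.618). Gria2, the AMPA receptor subunit with the classic editing site, had 90 and 65 counts (1.0-fold, 0.717 to 1.39).

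Among lists with 2-fold lower genes, the counts are read against the 3.04% of all 2464 genes. Of 28 chromatin regulators 2 were 2-fold lower, Chd3 and Ep300, and none higher, with a median of -0.42 and 11 above the median gene. Ep400 was the highest of them at 1.07-fold (0.783 to 1.46). Of 39 collagens 2 were 2-fold lower and none higher, with a median of -0.42 in 5xFAD and -0.11 in WT. Zinc finger genes gave 32 with a median of -0.34, of which 3 were 2-fold lower.

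Messenger RNAs of ribosomal and respiratory chain proteins did not reach the minimum. None of 86 cytosolic ribosomal protein genes, 78 mitochondrial ribosomal protein genes or 38 nuclear genes of oxidative phosphorylation had 100 counts, and their summed folds were 0.658 (0.596 to 0.727), 0.639 (0.583 to 0.7) and 0.685 (0.593 to 0.79) in 5xFAD. In WT the same sums were 0.841, 0.737 and 0.812. Homeostatic microglial genes summed to 0.63 (0.547 to 0.724) in 5xFAD and 1.0 (0.873 to 1.15) in WT. Disease-associated microglial genes summed to 1.02 (0.923 to 1.14) and 1.26 (1.14 to 1.4). They did not share one ratio in 5xFAD: Apoe and Fth1 lay at 3.76 and 4.0, but Trem2 and Ctss at 0.292 and 0.181. Whether these microglial lists differ was not tested. Of the 29 genes 2 passed the minimum, Apoe and Axl, a receptor for phosphatidylserine-binding ligands. Axl lay at 0.932 (0.612 to 1.41).

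**Figure D4:**
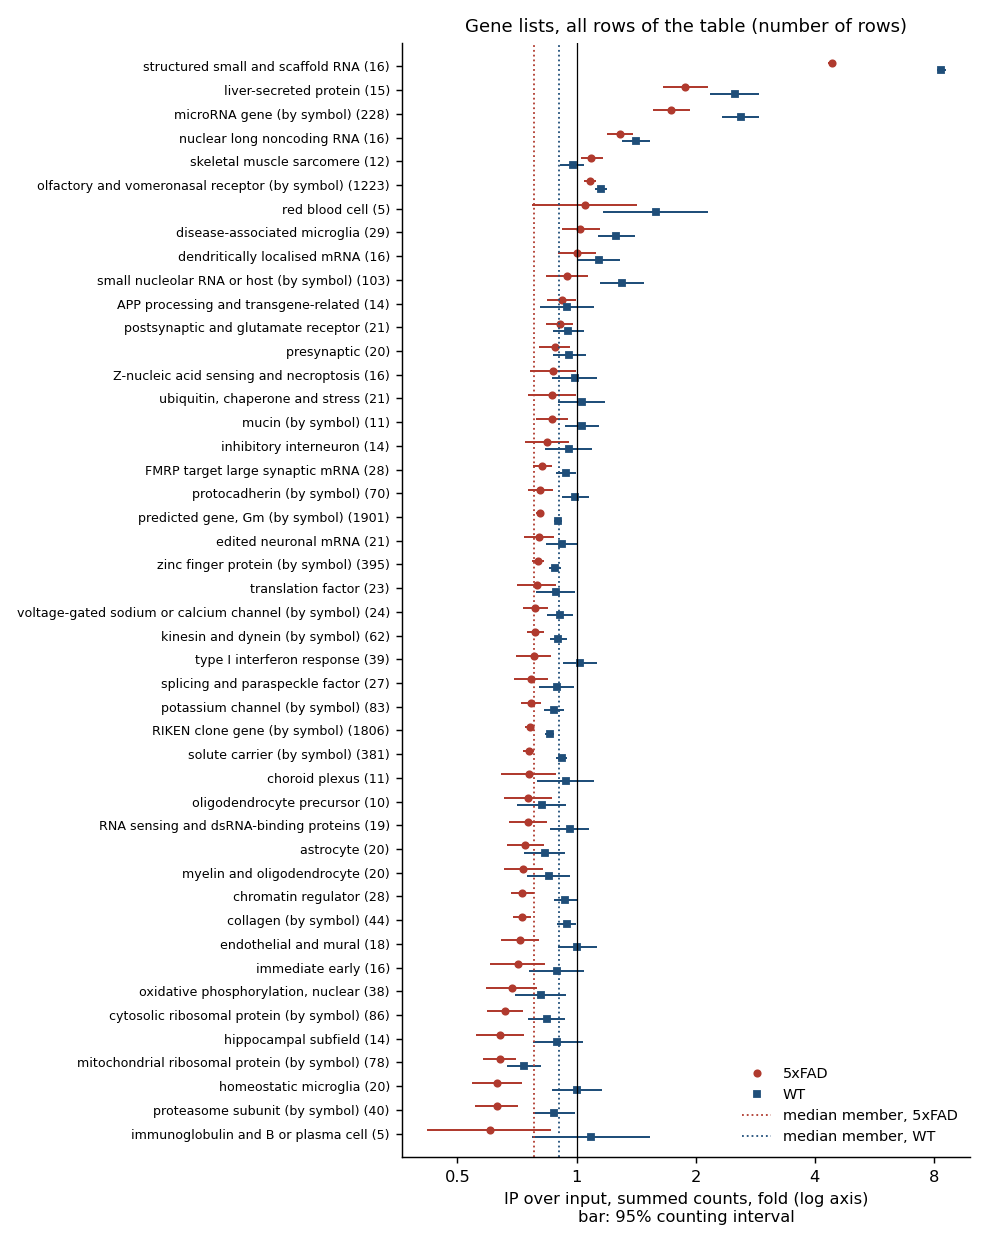
Fold of IP over input (log axis) of the summed counts of each gene list, over all its entries in the table (their number in brackets), in 5xFAD (red circles) and WT (blue squares) with 95% counting intervals; dotted lines mark the median gene of each genotype. The list of structured small and scaffold RNAs lies at the top, at 4.42 in 5xFAD and 8.33 in WT. In 5xFAD Rn45s gave 13872 of its 15145 input counts and 40195 of its 48310 IP counts. Lars2, a messenger RNA gene, gave 1076 and 7348 of them. Most lists of protein-coding genes lie within a short distance of the dotted lines.

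The RIP input was then set beside hippocampal RNA, as a check of the tissue label. Over 22878 gene entries with both values the 5xFAD input counts had a rank correlation of 0.6 with the mean CPM of 6 5xFAD hippocampal libraries and of 0.67 with the genomic span of the gene, and for the IP these were 0.52 and 0.68. Among the 2464 genes, whose range of input counts the count minimum narrows, the correlation of the input with hippocampal CPM was 0.1 (2427 genes). With span it was 0.24 (2461 genes). These are descriptions across genes of the same libraries, and counts were not divided by transcript length. Of 217 genes at 500 CPM or more in 5xFAD hippocampus 43.3% passed the minimum, with a median of 91 counts over both RIP libraries. Of 7173 genes under 1 CPM in each of 24 hippocampal libraries 1.35% passed, with a median of 21 counts. The 4 genes 2-fold higher in the IP among these 97 are Mir6236, Alb, Rmrp and Rpph1, which passed only through their IP counts.

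Single genes show how far the RIP input and the hippocampal libraries differ. As CPM of gene counts, which leave the repeat families out of the total, Ttn had 1390 in the 5xFAD RIP input, against 5.02 ± 1.97 CPM (SD, n = 6) in 5xFAD hippocampus. Muc16, a mucin of mucosal surfaces, had 333 against 0, and 270 and 244 counts in input and IP (1.25-fold, 1.05 to 1.5). Gfap, the filament of reactive astrocytes, had 44.3 against 2600 ± 576 CPM, and Snap25, a synaptic SNARE protein, had 32 against 1820 ± 260. Ttr had 9.85 against 2310 ± 2040 CPM, whose spread in hippocampus is as large as its mean. The 1223 olfactory and vomeronasal receptor entries, a list added after the values were seen, held 1.33% of the gene counts of the 5xFAD input and 1.62% of the IP, against 0.00562% in hippocampus, and their IP over input was 1.08 (1.05 to 1.11) in 5xFAD and 1.15 (1.12 to 1.19) in WT. Xist, the RNA of the inactive X chromosome, had 164 CPM of gene counts in the 5xFAD input and at most 3.51 CPM in any hippocampal library. The labels give polyA RNA for both kinds of library. What part gene span has in these differences was not tested.

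**Figure D5:**
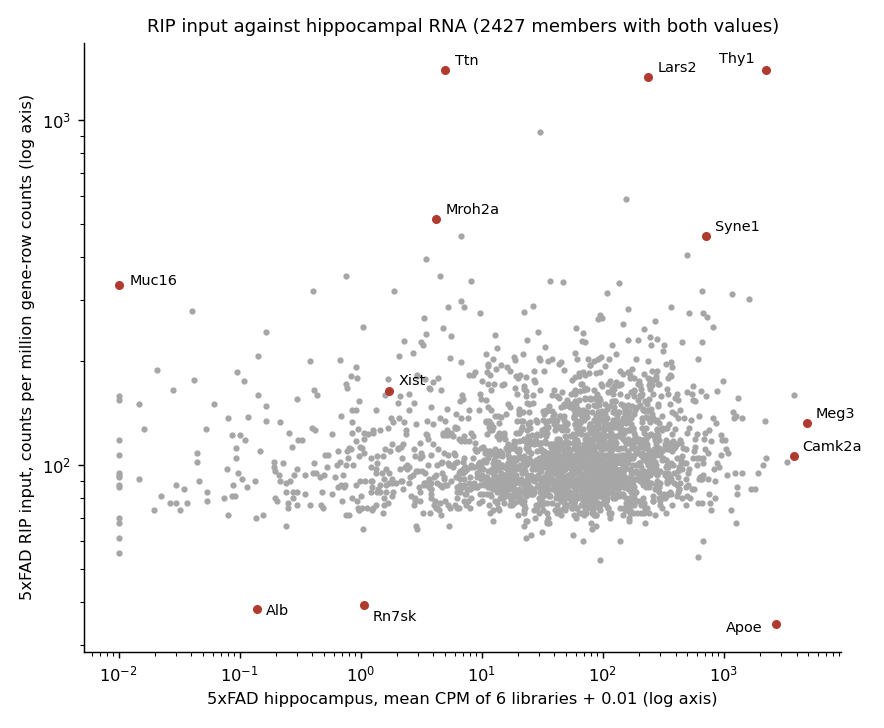
CPM of gene counts in the 5xFAD RIP input (vertical axis, 1 library) against mean CPM plus 0.01 in 5xFAD hippocampus (horizontal axis, 6 libraries) for 2427 genes, both on log axes. Genes spread over the whole horizontal range at nearly the same height, with Muc16 at 0 and 333 CPM at the left and Apoe at the lower right.

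In 5xFAD the ratio varied with gene span. The rank correlation of the log2 ratio with span was 0.17 over 2461 genes, and with hippocampal CPM it was -0.02 over 2427. With the genes split into 5 equal groups by span, the shortest group, up to 44000 bases, had a median log2 ratio of -0.46 and 36 of the 75 low genes, but also 8 of the 9 high genes that have a span. Among these 8 are Mir6236, Rn7sk, Rpph1, Rmrp, Alb and Apoe, which passed the minimum only through their IP counts. The place of the high genes is thus largely set by the filter. The longest group, from 223000 bases, had -0.29 and 6 low genes. The groups between had -0.37, -0.35 and -0.33. In WT the correlation with span was -0.02, with medians of -0.13 in the shortest and -0.14 in the longest group. The 75 low genes had a median span of 49327 bases against 96323 for all genes. What part span has in the low ratios was not tested.

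In hippocampal RNA the 5xFAD effect on these genes was read from both cohorts with edgeR's quasi-likelihood test (Benjamini-Hochberg adjusted over all genes, call under 0.05). In the Ripk1 cohort 85 of 2359 genes tested were higher in 5xFAD (3.6%, against 8.11% of all 21376 genes) and 766 were lower (32.5%, against 8.02%). Without 5xFAD replicate 2 the calls in both directions numbered 444, and without WT replicate 1 they numbered 456, against 851 with all libraries. In the Zbp1 cohort 84 of 2358 were higher (3.56%, against 3.0% of 21274) and 3 lower (0.127%, against 0.127%), and the 87 calls became 54 without 5xFAD replicate 1 and 182 without 5xFAD replicate 2. The share of lower genes thus differed between cohorts, and whether their effects differ was not tested. In bulk tissue fewer cells of a type and less RNA per cell cannot be told apart. Of the 11 IP-higher genes 6 had a test in the Ripk1 cohort and 7 in the other, and Apoe was the 1 called in each, higher in both. Of the 75 IP-lower genes 5 were higher and 14 lower of 74 tested in the Ripk1 cohort, and 4 and 0 in the Zbp1 cohort.

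Apoe shows the independent readout in full. It had 1040, 1060 and 1100 CPM in the WT libraries of the Ripk1 cohort and 2120, 2780 and 2470 in 5xFAD. In the Zbp1 cohort it had 1150, 1710 and 1420 in WT and 3320, 3540 and 2030 in 5xFAD. The groups did not overlap in either cohort. The log2 fold change was 1.13 (SE 0.13, edgeR adjusted p = 6.36e-05) and 1.03 (SE 0.19, adjusted p = 0.00557). In the RIP inputs Apoe had 28 counts in 5xFAD and 23 in WT. Lars2 and Malat1, the other well expressed genes of the 11, did not pass the test in either cohort, with log2 fold changes of -0.24 and 0.16 in the Ripk1 cohort and -0.17 and -0.17 in the Zbp1 cohort (edgeR adjusted p from 0.269 to 0.934). Rmrp and Rpph1 are listed at 0 in the 12 WT and 5xFAD hippocampal libraries.

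Genes higher in 5xFAD hippocampus in both cohorts lay on both sides of the median gene in the IP, mostly at or below it. There were 57 of them among the 2464, and 20 lay above the median gene. Their median log2 ratio in the 5xFAD RIP pair was -0.46, against -0.36 for all 2464. Of the 57, 1 was 2-fold higher and 3 were 2-fold lower, against 0.446% and 3.04% of all 2464. Whether they differ from the other genes was not tested, and the share of all hippocampal genes called in both cohorts was not counted. Trf was called higher with log2 fold changes of 0.93 (SE 0.18, edgeR adjusted p = 0.00432) and 0.87 (SE 0.14, adjusted p = 0.00142). Axl was higher by 0.82 (SE 0.07, adjusted p = 2.09e-06) and 1.14 (SE 0.14, adjusted p = 0.000247). Col16a1, a fibril-associated collagen and one of the lowest genes in the IP, was higher by 0.88 (SE 0.11, adjusted p = 0.000115) and 0.8 (SE 0.19, adjusted p = 0.0279).

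The authors' deposited table calls 19 genes higher and 2 lower in the 5xFAD IP. Among the 2464 genes these are 11 higher, the same 11 as above by name, and 1 lower. For WT the authors' deposited table calls 12 of the same genes higher and none lower. Its log2 fold changes exceed the ratios given here by a median of 0.38 in 5xFAD, and its largest unadjusted p among the called genes is 3.27e-05. With 1 library a side the authors' deposited p-values rest on no spread between replicates.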

How the data were processed

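Per the file headers, the authors deposited 1 table of counts for the 4 RIP libraries (genes and repeat families), 1 of their own comparisons (log2 fold changes, p-values and calls) and 1 table of counts per hippocampal cohort. Per the submitters' processing notes HISAT2, DESeq2 1.42.1 and edgeR 4.0.16 were used. The builds named there are mm10 and mm39 with no role, so no coordinates are given. How reads were counted, and whether strand was used, is not stated in the labels or headers, so overlapping genes and near-identical copies could share reads.

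Here CPM used all counts of a RIP library. The log2 ratio added 0.5 count to each side, and higher or lower means 2-fold or more. Intervals are 95% Clopper-Pearson. Each hippocampal cohort (12 libraries, 3 a genotype, 16.6 to 44.8 and 8.4 to 34.6 M counts) was fitted in edgeR 4.0.16 (R 4.3.3, TMM, filterByExpr, quasi-likelihood). The labels do not say that these libraries are separate animals, so p-values measure the spread between libraries. On simulated data the fits recovered 200 (20801 genes, Ripk1 cohort) and 199 (20513 genes, Zbp1 cohort) of 200 genes changed 4-fold. Hippocampal genes were matched by symbol (2427 of 2464).

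Named genes were the 15 at each end by interval bound, the 10 with most IP counts, each list's highest, lowest and most counted gene, the 8 largest genotype differences in each direction, IP-higher genes that were higher in both cohorts, and the genes of the pathway and transgenes; others named were chosen after their values were seen, and some genes that the rule names are not reported here. The genes, the 44 lists (4 more were added) and the rules were chosen with earlier results of these data known. Promoter sequences were at hand for 1935 of 2464 genes (78.5%), so the check of GC content is void. Alternatives were other scalings, minimums, pseudocounts and thresholds, DESeq2, no filter, and leaving out each library.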

Additional observations from a re-analysis of the deposited data

Results flagged for a closer look

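In 8 of the genes named for their difference between genotypes, the 5xFAD and the WT ratio of IP over input lay on opposite sides of the median gene, and the counting intervals did not overlap. These genes were picked for large differences and for intervals that do not overlap. The lack of overlap is therefore fixed by that choice, and the opposite sides follow from it in part. The share of all 1817 genes that lie on opposite sides is not given here. With 1 library a group the difference was not tested. The log2 ratio in 5xFAD minus that in WT was 1.3 for Mib1 (0.64 and -0.66) and 1.19 for Slc1a2 (0.55 and -0.64). It was -1.93 for Trpm5 (-1.54 and 0.39), -1.71 for Rap1gap (-1.62 and 0.09), -1.48 for Odf2 (-1.42 and 0.06), -1.48 for Zfp292 (-1.16 and 0.32), -1.45 for Phka2 (-0.9 and 0.54) and -1.44 for Dot1l (-1.08 and 0.36).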

How the results depend on the processing

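The count of genes higher in the IP, 11, was 10 to 16 under the scaling, pseudocount and interval settings run, 9 at 4-fold, 23 with a minimum of 50 counts and 5 with 500. The 75 lower genes depended on the settings: 25 with gene totals, 7 with TMM or DESeq2 size factors, 10 after centring, 717 with a minimum of 50, 0 with 500, 34 with a pseudocount of 5, 2 by whole intervals and 0 at 4-fold. The median log2 ratio was -0.18 with gene totals, 0.02 with TMM or DESeq2 factors, 0 after centring, -0.39 and 0.03 with minimums of 50 and 500, and -0.3 with a pseudocount of 5. Genotype differences of 1 or more (4) and -1 or less (58) became 26 and 20 with gene totals, 14 and 28 with TMM or DESeq2 factors, 14 and 25 after centring, 82 and 548 with a minimum of 50, 0 and 3 with 500; the former was 2 with a pseudocount of 5 and 2 by whole intervals. The rank correlation with span was -0.33 over the 14 genes with 500 counts. Fewer genes enter at 500 counts and more at 50; otherwise the cause was not tested. Calls in hippocampus numbered 851 in the Ripk1 cohort (444 to 797 leaving out 1 library) and 87 in the Zbp1 cohort (54 to 182), where no filter gave 141. With the replicate number as a block they were 897 and 109; same-numbered WT and 5xFAD libraries correlated at 0.01 to 0.14 and 0.09 to 0.4 in their deviations, so the numbers were not taken to pair animals. No paired analysis was possible for the RIP libraries because each group has 1 library. The median gene had 127 counts, and the median counting interval reached a factor of 1.46 to either side. Scatter between genes exceeded counting error, so this factor is not a limit of detection.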

Other observations

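Below the minimum of 100 counts the authors' deposited table calls further small RNAs higher in the 5xFAD IP. Rny1, a Y RNA of Ro ribonucleoproteins, had 3 input and 81 IP counts in 5xFAD (37.4-fold, 12.4 to 185) and 4 and 37 in WT (14.4-fold, 5.16 to 55.4). Rny3, a second Y RNA, had 1 and 34 in 5xFAD (47.2-fold, 7.91 to 1920) and 4 and 23 in WT (8.92-fold, 3.05 to 35.5). Snord15b, a small nucleolar RNA, had 4 and 23 in 5xFAD (7.98-fold, 2.72 to 31.7) and 4 and 21 in WT (8.15-fold, 2.75 to 32.6). Each of the 3 had more IP than input counts in both genotypes. Short, abundant messenger RNAs were called too: Fth1, the heavy chain of ferritin, had 17 and 49 in 5xFAD (4.0-fold, 2.26 to 7.4) and 23 and 51 in WT (3.44-fold, 2.07 to 5.9), and Actb, beta-actin, had 31 and 57 (2.55-fold, 1.62 to 4.09) and 31 and 83 (4.15-fold, 2.72 to 6.5). Apoa1, the main apolipoprotein of high density lipoprotein, had 17 and 44 in 5xFAD (3.59-fold, 2.01 to 6.7) and 11 and 49 in WT (6.91-fold, 3.55 to 14.7).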
